A study of Mustela putorius furo and Mus musculus with 4 samples.

Results

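The genes described here are *Trp53*, which encodes the transcription factor p53, and 9 genes known to be transcribed under its control: *Cdkn1a*, *Mdm2*, *Ccng1*, *Phlda3*, *Sesn2*, *Bax*, *Zmat3*, *Eda2r* and *Trp53inp1*. They are 10 of the 17170 genes in a table of single-cell RNA sequencing counts from mouse cortex at embryonic day 18, and they were taken by symbol and followed across 5 cell types. The question was which lineages carry the higher level of these genes in cortex without *Smo*, the transducer of SHH signaling. Each genotype is represented by 1 library. The mutant, here *Smo*-cKO, carries *hGFAP-Cre* and 2 floxed *Smo* alleles (*Smo* F/F). Its littermate control is given as *Smo* F/F in the study's methods but as wild type in the labels, which name CD1 as the strain of both. In both, a CellTrace dye (the FlashTag of the labels) was injected into the lateral ventricle at embryonic day 17 and dye-labeled cells were sorted from the cortex at embryonic day 18, so the cells are a selection of ventricular cells and their recent progeny. Cre under the human *GFAP* promoter acts in cortical radial glial (RG) cells and is inherited by their progeny. Microglia do not arise from RG cells.

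p53 is kept at a low level in unstressed cells by MDM2, a ubiquitin ligase that marks it for degradation and is itself a p53 target. DNA damage, failed mitosis, ribosomal stress and other insults free p53 from MDM2, so its activity is set mostly by protein stability and not by the amount of its mRNA. Active p53 switches on genes that stop the cell cycle, such as *Cdkn1a*, and genes that prepare the mitochondrial route of apoptosis, such as *Bax*. In the embryonic cortex, progenitors are known to be sensitive to p53 activation after mitotic or genomic stress.

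The table holds counts of unique molecular identifiers (UMIs), each of which stands for 1 captured transcript. The only trace of a sample in the barcodes is their suffix. The suffix with 10524 barcodes was taken as control and that with 7596 as *Smo*-cKO, since the study's methods give these as the numbers of cells per genotype, and every direction given here rests on that assignment. The libraries hold 52287727 UMIs (control) and 43283675 UMIs (*Smo*-cKO), and 28 barcodes occur in both. The study's limits on detected genes and mitochondrial UMIs per cell were applied, which kept 10498 control and 7209 *Smo*-cKO cells. Levels are given as CPM, the UMIs of a gene per 1000000 UMIs of the same cells. With 1 library per genotype there is no replicate and no test. All intervals are 95% intervals for counting error only, and genotype, embryo and preparation cannot be told apart.

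Each cell was typed from the UMIs of marker genes, with no p53 target among the markers. RG-like cells numbered 3173 in control and 2113 in *Smo*-cKO. *Slc1a3* had a UMI in 90.0% and 86.7% of them, *Sox2* in 82.4% and 80.7%, and *Slc1a3* in 20.9% of all other cells. The *Eomes*-expressing intermediate progenitors of pyramidal neurons (IPC-like) numbered 2413 and 1360, with *Eomes* in 93.4% and 92.9%. Pyramidal neurons (PyN-like) numbered 1541 and 1797, with *Neurod6* in 97.6% and 98.6%. Multipotent intermediate progenitors (MIPC-like), which give rise to glia and olfactory interneurons, numbered 379 and 99, with *Egfr* in 77.0% and 61.6% and *Olig2* in 89.7% and 93.9%. Microglia-like cells numbered 97 and 176. The marker shares follow from the typing, which used the same markers, and do not check the names. Without cells holding at least 2 markers of another type, 1819 control and 881 *Smo*-cKO RG-like cells remained, and 174 and 42 MIPC-like cells. The microglia-like class was mixed in *Smo*-cKO. There *Tyrobp* was found in 98.3% of cells, but *Fcrls* in 38.1% against 69.1% in control, and *S100a8*, a gene of neutrophils and blood monocytes, in 17.6% against 5.15%. The cells left without a type numbered 2570 and 1312.

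The targeted gene was checked first. *Smo* had 259 UMIs in control RG-like cells (13.8 CPM) but 6 in those of *Smo*-cKO (0.350 CPM), which makes a ratio of 0.0255 (0.00926 to 0.0562). *Gli1* and *Ptch1*, which SHH signaling switches on, had 85 and 413 UMIs in control and 0 and 23 in *Smo*-cKO. *Prm1* had no UMI in any control cell of the 5 types, and had a UMI in 82.3% of *Smo*-cKO RG-like cells but in 7.95% of microglia-like cells. The depth of the libraries differed. RG-like cells had a median of 5160 UMIs in control and 7458 in *Smo*-cKO, so shares of cells with a UMI are also given as the share expected if every cell were thinned to 2900 UMIs.

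In RG-like cells all 10 genes had a higher CPM in *Smo*-cKO than in control, as had 5687 of the 11915 genes tested there. For *Mdm2*, at 1.02 (0.892 to 1.16), the interval of the ratio held 1. At least 2-fold higher were 5 of the 10: *Cdkn1a*, *Phlda3*, *Eda2r*, *Sesn2* and *Ccng1*. Of all 11915 genes with at least 50 UMIs in RG-like cells, 2.68% were at least 2-fold higher in *Smo*-cKO. The genes had been selected on the higher shares of *Cdkn1a* and *Trp53* seen earlier in RG-like cells of *Smo*-cKO, so these counts describe them and support nothing. The median log2 ratio of the 10 genes (1 CPM added) was 0.89, beside -0.01 over all genes tested. In the other types the count was 2 of 9 in IPC-like cells (background 1.58%), 1 of 7 in PyN-like cells (0.701%), 2 of 7 in MIPC-like cells (1.22%) and 1 of 5 in microglia-like cells (5.78%). The denominators are the genes with at least 50 UMIs in the type, since the others are too sparse to be read against the background. The median log2 ratio over all 10 genes, 1 CPM added, was 0.35 in IPC-like, 0.23 in PyN-like, 0.43 in MIPC-like and 0.09 in microglia-like cells, beside 0.06, 0.03, -0.06 and -0.06 over the genes tested in those types. None of the 10 genes with at least 50 UMIs was 2-fold lower in any of the 5 types. The background of 2-fold lower genes was 1.61% in RG-like, 2.71% in IPC-like, 0.945% in PyN-like, 2.37% in MIPC-like and 3.71% in microglia-like cells.

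**Figure D1:**
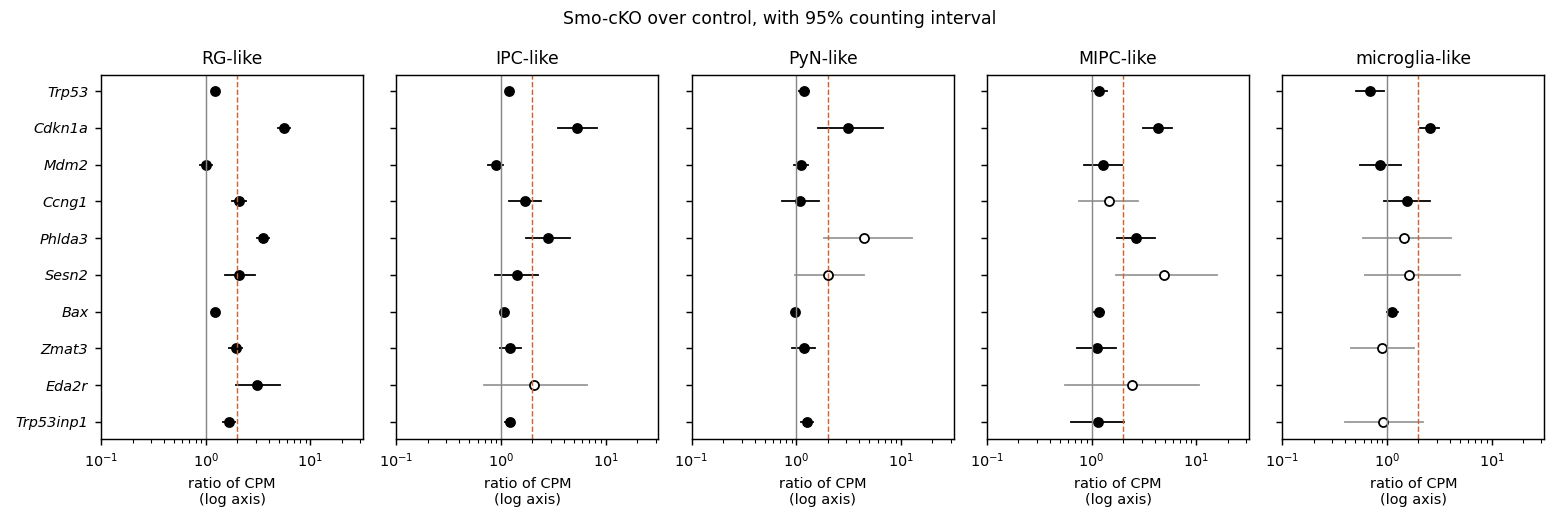
Ratio of CPM, *Smo*-cKO over control, for the 10 genes in 5 cell types, on a log axis. Points are ratios with 95% counting intervals (bars cut at the axis limits), filled where the gene had at least 50 UMIs in the type and open where it had fewer; the solid line marks a ratio of 1 and the dashed line a ratio of 2. *Cdkn1a* lies right of the dashed line in every type, from 2.56 in microglia-like to 5.58 in RG-like cells, while *Trp53*, *Bax* and *Mdm2* stay left of it.

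*Trp53* itself, on chromosome 11 from 69580359 to 69591873 (GRCm38, GENCODE annotation, as for all coordinates here), differed little. In RG-like cells it stood at 94.9 CPM (90.6 to 99.4) in control and 117 CPM (112 to 122) in *Smo*-cKO, a ratio of 1.23 (1.15 to 1.31). The ratio was 1.20 (1.11 to 1.30) in IPC-like, 1.19 (1.07 to 1.31) in PyN-like and 1.19 (1.00 to 1.41) in MIPC-like cells, so the 4 types of the RG lineage had nearly the same value. Microglia-like cells went the other way, from 80.8 CPM to 55.4 CPM, a ratio of 0.687 (0.507 to 0.932). Inhibitory-like cells, whose *Dlx*- and *Gad*-expressing lineage arises mostly outside the cortex, had 111 CPM and 103 CPM, a ratio of 0.929 (0.722 to 1.19). The log2 ratio in RG-like cells exceeded that in microglia-like cells by 0.84 (0.41 to 1.27), whereas its differences from IPC-like, PyN-like and MIPC-like cells were 0.04 (-0.11 to 0.18), 0.05 (-0.12 to 0.22) and 0.05 (-0.21 to 0.31). At 2900 UMIs per cell the share of RG-like cells with a *Trp53* UMI was 23.4% in control and 28.4% in *Smo*-cKO. Of all genes tested in RG-like cells, 85.1% had a lower ratio than *Trp53*.

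*Mdm2* (chromosome 10, 117688875 to 117710758), the ligase that degrades p53 and is induced by it, was the target with the least difference in RG-like cells. It stood at 25.2 CPM in control and 25.6 CPM in *Smo*-cKO RG-like cells, a ratio of 1.02 (0.892 to 1.16). In IPC-like cells it was 39.8 and 35.3 CPM (ratio 0.888, 0.760 to 1.04), in PyN-like cells 41.5 and 46.1 CPM (1.11, 0.944 to 1.31), in MIPC-like cells 22.2 and 28.6 CPM (1.29, 0.841 to 1.95) and in microglia-like cells 35.3 and 30.4 CPM (0.862, 0.555 to 1.35). Every one of these intervals holds 1. Counts of UMIs sum over all transcripts of the gene, so the transcripts from its p53-dependent inner promoter cannot be told apart from the others. Both libraries had more *Mdm2* in IPC-like than in RG-like cells, with intervals that do not overlap (36.2 to 43.5 against 23.0 to 27.5 CPM in control).

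*Cdkn1a* (chromosome 17, 29090976 to 29100727) encodes p21, the inhibitor of cyclin-dependent kinases through which p53 stops the cell cycle. In RG-like cells its 276 UMIs in control made 14.7 CPM (13.0 to 16.5), and its 1401 UMIs in *Smo*-cKO made 81.7 CPM (77.5 to 86.1). The ratio was 5.58 (4.90 to 6.37), which is rank 27 of the 11915 genes tested. A UMI was found in 103 control cells (3.25%, 2.66 to 3.92%) and in 442 *Smo*-cKO cells (20.9%, 19.2 to 22.7%), or 2.15% and 13.7% when thinned. PyN-like cells had shares of 0.649% (control) and 1.39% (*Smo*-cKO), or 0.499% and 0.900% thinned, at median depths of 3343 and 4149 UMIs, and the RG-like shares lie far above that.

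A larger share of RG-like cells had a *Cdkn1a* UMI in *Smo*-cKO. The 103 control cells with a UMI held 276 UMIs and the 442 *Smo*-cKO cells 1401, at median depths of 6099 and 7242.5 UMIs. The amount per cell with a UMI was not compared at equal depth. Cells with at least 3 UMIs made up 1.01% of control and 9.56% of *Smo*-cKO RG-like cells, and the highest count in a cell was 29 in control and 23 in *Smo*-cKO. The highest single count was thus in a control cell. No UMI was found in 96.8% of control and 79.1% of *Smo*-cKO RG-like cells.

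**Figure D2:**
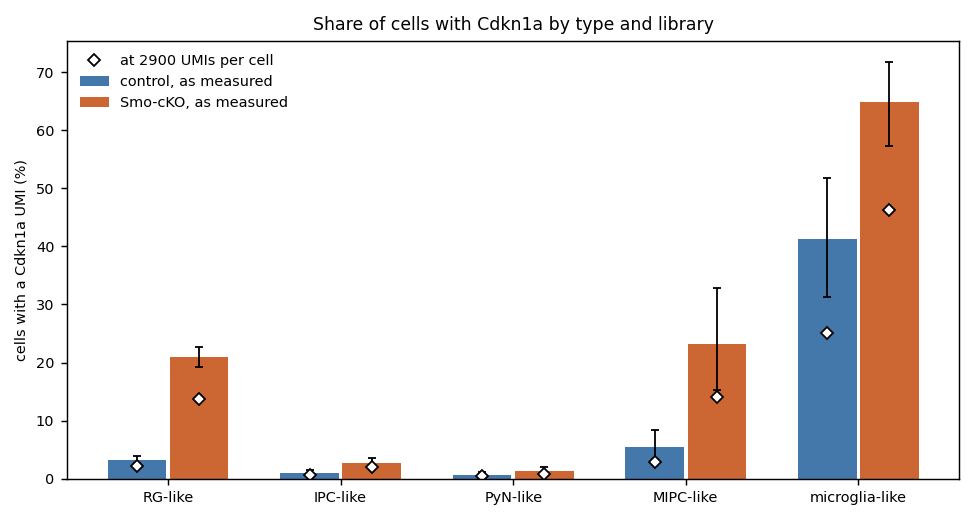
Share of cells with a *Cdkn1a* UMI in each type (x axis) as a percent of cells (y axis, from 0), in control and *Smo*-cKO. Bars are shares with exact 95% intervals and diamonds the shares expected at 2900 UMIs per cell, over the cells with at least 2900 UMIs. RG-like and MIPC-like cells go from under 6% in control to 20.9% and 23.2% in *Smo*-cKO, microglia-like cells are above 40% in both libraries, and IPC-like and PyN-like cells stay under 3%.

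The order of the *Cdkn1a* level over the 5 types was the same in both libraries. Of the 5, microglia-like cells were highest, at 114 CPM (94.0 to 137) in control and 292 CPM (268 to 318) in *Smo*-cKO, a ratio of 2.56 (2.09 to 3.17). MIPC-like cells followed, at 20.6 CPM (15.9 to 26.3) and 88.1 CPM (72.7 to 106), a ratio of 4.27 (3.12 to 5.89) that is rank 7 of 7370 genes. Without cells holding at least 2 markers of another type, the MIPC-like ratio was 11.6 over 174 control and 42 *Smo*-cKO cells. Their intervals overlap those of RG-like cells in both libraries. IPC-like cells had 2.53 CPM (1.71 to 3.61) and 13.4 CPM (10.9 to 16.3), a ratio of 5.29 (3.49 to 8.26). PyN-like cells were lowest, at 1.83 CPM (0.911 to 3.27) and 5.71 CPM (4.20 to 7.60), a ratio of 3.13 (1.60 to 6.69), and could not be told from IPC-like cells in control but lay below them in *Smo*-cKO. Vascular-like cells, 60 in control and 34 in *Smo*-cKO, had 319 and 324 CPM, above the microglia-like values, so a high level occurs in both libraries outside the RG lineage. Ependymal-like cells, 6 and 3 in number, had 258 and 118 CPM. Inhibitory-like cells had 9.08 and 29.2 CPM, a ratio of 3.22 (1.60 to 7.02) on 11 and 35 UMIs. The untyped cells had 5.76 and 30.1 CPM, a ratio of 5.23 (3.77 to 7.36), so the higher level was not confined to the 5 types.

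The ratio in RG-like cells was not distinguishable by counting error from that in IPC-like, PyN-like and MIPC-like cells, with log2 differences of 0.08 (-0.54 to 0.69), 0.83 (-0.13 to 1.80) and 0.38 (-0.09 to 0.86). It was larger than in microglia-like cells, by 1.12 (0.77 to 1.47). A low level in IPC-like and PyN-like cells can include free RNA of other cells. In *Smo*-cKO, *Cdkn1a* in IPC-like and PyN-like cells stood at 16.4% and 6.99% of its RG-like CPM. *Prm1* stood at 5.07% and 4.21%, and *Aldoc*, an RG marker used for typing, at 2.90% and 1.22%. The part of free RNA in the IPC-like and PyN-like ratios was not tested. The PyN-like share of 0.900% at 2900 UMIs is therefore read neither as expression nor as free RNA.

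**Figure D3:**
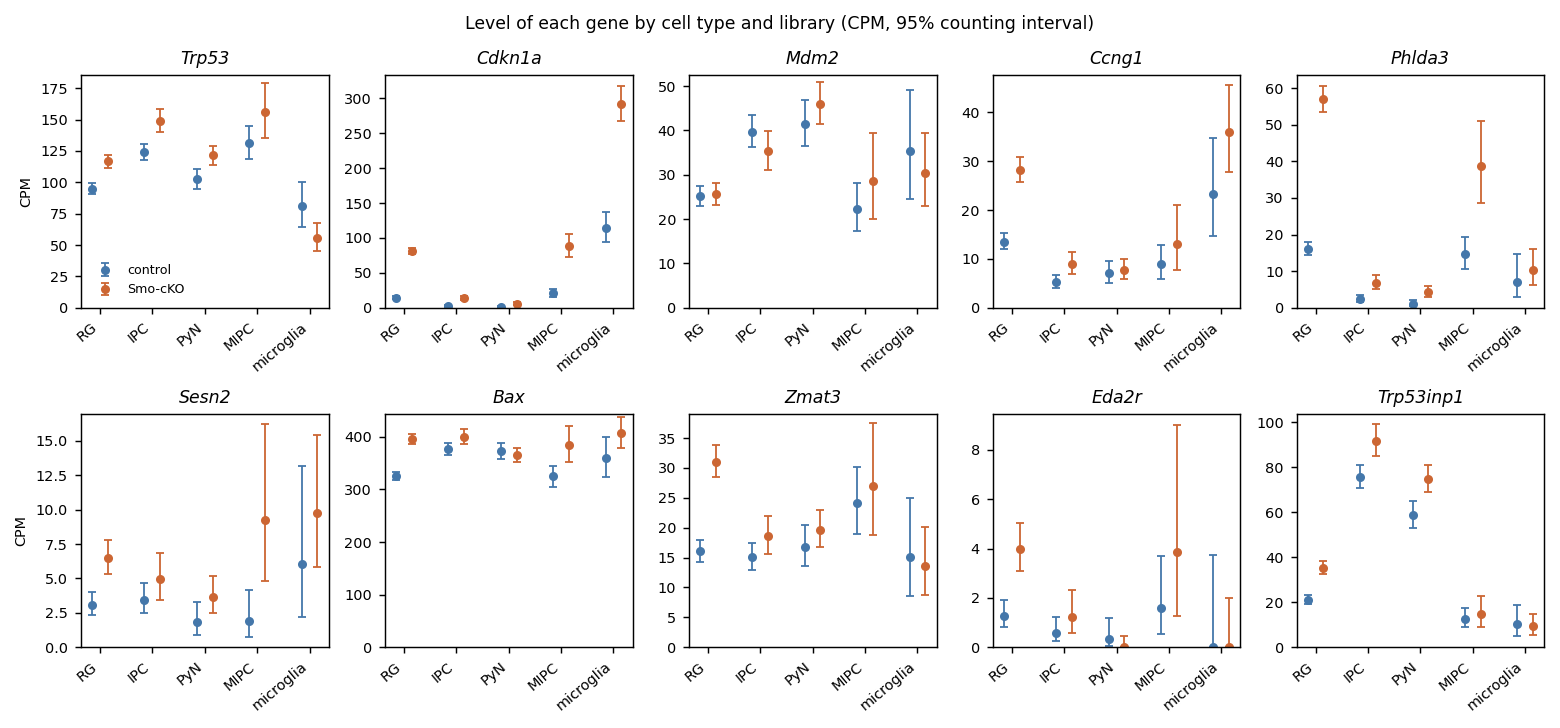
CPM of each of the 10 genes (y axis, from 0, own scale per panel) by cell type (x axis) in control and *Smo*-cKO. Points are summed UMIs per 1000000 with exact 95% Poisson intervals. *Phlda3*, *Ccng1*, *Zmat3* and *Eda2r* separate most between libraries in RG-like cells, *Cdkn1a* is highest in microglia-like cells (292 CPM in *Smo*-cKO), and *Trp53inp1* is highest in IPC-like cells in both libraries.

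*Phlda3* (chromosome 1, 135766119 to 135769136), whose product blocks the recruitment of AKT to the membrane, came next in size. It had 304 UMIs in control RG-like cells (16.1 CPM, 14.4 to 18.1) against 977 in *Smo*-cKO (57.0 CPM, 53.5 to 60.7), and the ratio was 3.53 (3.10 to 4.03). Its share of RG-like cells was 7.78% and 25.1%, or 4.14% and 13.6% thinned, against 0.207% and 1.04% thinned in PyN-like cells. The ratio was 2.79 (1.73 to 4.58) in IPC-like cells, from 2.45 to 6.84 CPM, and 2.65 (1.74 to 4.04) in MIPC-like cells, from 14.6 to 38.6 CPM. In PyN-like cells 6 and 36 UMIs gave 4.39 (1.83 to 12.8), and in microglia-like cells 7 and 19 UMIs gave 1.46 (0.588 to 4.11), both too few to be counted among the genes tested. *Phlda3* thus had an interval above 1 in RG-like, IPC-like and MIPC-like cells, and in PyN-like cells on few UMIs. In untyped cells the ratio was 3.93 (2.50 to 6.31), and in inhibitory-like cells 7 and 8 UMIs gave 1.16 (0.366 to 3.74). In PyN-like cells of *Smo*-cKO the *Phlda3* CPM was 7.68% of the RG-like one, beside 4.21% for *Prm1* and 1.22% for *Aldoc*. The part of free RNA in it was not tested, so it is read neither as expression nor as free RNA.

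*Ccng1* (chromosome 11, 40748552 to 40755311) encodes cyclin G1, which brings a phosphatase to MDM2. In RG-like cells it stood at 13.5 CPM (11.9 to 15.3) in control and 28.2 CPM (25.7 to 30.8) in *Smo*-cKO, a ratio of 2.08 (1.78 to 2.43). In IPC-like cells it had 5.32 and 9.03 CPM, a ratio of 1.70 (1.18 to 2.44), while in PyN-like cells 7.14 and 7.78 CPM made a ratio of 1.09 (0.729 to 1.64). The log2 ratio in RG-like cells exceeded that in PyN-like cells by 0.93 (0.33 to 1.53). MIPC-like cells had 28 and 17 UMIs, a ratio of 1.48 (0.760 to 2.80), and microglia-like cells had 23.2 and 35.9 CPM, a ratio of 1.55 (0.949 to 2.60).

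*Eda2r* (chromosome X, 97333840 to 97377216), a receptor of the tumor necrosis factor receptor family, was the sparsest of the genes. In RG-like cells it had 24 UMIs in control (1.27 CPM) and 68 in *Smo*-cKO (3.97 CPM), a ratio of 3.11 (1.93 to 5.19). Without RG-like cells that held at least 2 markers of another type, the ratio was 7.80. It had 7 and 9 UMIs in IPC-like cells, 5 and 5 in MIPC-like cells and 2 and 0 in PyN-like cells, which is too few to be counted among the genes tested. In microglia-like cells it had 0 UMIs in both libraries, which allows up to 3.09% of control and 1.70% of *Smo*-cKO cells with a UMI.

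*Sesn2* (chromosome 4, 132492032 to 132510501) encodes sestrin 2, a stress protein that restrains mTORC1. RG-like cells had 3.08 CPM (2.34 to 3.98) in control and 6.48 CPM (5.33 to 7.80) in *Smo*-cKO, a ratio of 2.10 (1.52 to 2.94). IPC-like cells had 3.46 and 4.92 CPM, a ratio of 1.42 (0.884 to 2.28), whose interval holds 1. The other types had few UMIs. MIPC-like cells had 6 and 12 (ratio 4.87, 1.69 to 15.8), PyN-like cells 11 and 30 (2.00, 0.973 to 4.42) and microglia-like cells 6 and 18 (1.62, 0.614 to 4.97). *Sesn2* is also a target of the integrated stress response. Of 13 genes of that response tested in RG-like cells only *Vldlr* was at least 2-fold higher, at 2.14 (1.85 to 2.47), beside 2.68% of all genes, and the median log2 ratio of the 13 was 0.32.

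*Zmat3* (chromosome 3, 32334792 to 32366014), an RNA-binding regulator of splicing, lay just under the 2-fold line. Its level in RG-like cells was 16.1 CPM (14.3 to 18.0) in control and 31.0 CPM (28.5 to 33.8) in *Smo*-cKO, a ratio of 1.93 (1.67 to 2.23). In control the level was alike over RG-like, IPC-like and PyN-like cells, at 16.1, 15.1 and 16.8 CPM with overlapping intervals. In *Smo*-cKO the RG-like cells stood above the IPC-like cells (18.6 CPM, 15.6 to 22.0) and the PyN-like cells (19.7 CPM, 16.8 to 23.0). The ratio was 1.23 (0.978 to 1.55) in IPC-like, 1.17 (0.911 to 1.52) in PyN-like, 1.12 (0.730 to 1.70) in MIPC-like and 0.897 (0.455 to 1.83) in microglia-like cells, the last with 15 and 25 UMIs. The log2 ratio in RG-like cells exceeded those 4 by 0.65 (0.27 to 1.03), 0.72 (0.30 to 1.13), 0.78 (0.17 to 1.39) and 1.10 (0.16 to 2.05). *Zmat3* was the one gene of the 10 whose interval of the difference left out 0 against all 4 types.

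*Trp53inp1* (chromosome 4, 11156431 to 11174379), which encodes a stress protein that acts in p53 phosphorylation and in autophagy, had a different base pattern. In control it stood at 75.9 CPM in IPC-like and 58.8 CPM in PyN-like cells but 21.1 CPM in RG-like cells. In *Smo*-cKO the levels were 91.9, 74.9 and 35.2 CPM. The ratio was 1.66 (1.46 to 1.89) in RG-like cells, and 1.21 (1.09 to 1.34) in IPC-like and 1.27 (1.12 to 1.46) in PyN-like cells. The log2 ratio in RG-like cells exceeded those by 0.46 (0.23 to 0.69) and 0.39 (0.12 to 0.65). MIPC-like cells had 12.7 and 14.7 CPM (ratio 1.16, 0.633 to 2.05), and microglia-like cells had 10 and 17 UMIs (0.915, 0.396 to 2.24). When RG-like cells with at least 2 markers of another type were left out, the RG-like ratio was 2.67 over 1819 control and 881 *Smo*-cKO cells.

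*Bax* (chromosome 7, 45461697 to 45466898), which encodes the pore former of mitochondrial apoptosis, was found in most cells of every type. It stood at 326 CPM (318 to 334) in control and 396 CPM (387 to 405) in *Smo*-cKO RG-like cells, a ratio of 1.22 (1.17 to 1.26). The ratio was 1.06 (1.01 to 1.11) in IPC-like, 0.981 (0.928 to 1.04) in PyN-like, 1.19 (1.06 to 1.32) in MIPC-like and 1.13 (0.995 to 1.29) in microglia-like cells. The log2 ratio in RG-like cells exceeded that in IPC-like cells by 0.19 (0.11 to 0.28) and that in PyN-like cells by 0.31 (0.22 to 0.40). It is a small difference measured on many UMIs.

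The 10 genes also differed in which cells carried their difference over the whole library. For each gene, the UMIs of a type were set over all UMIs of its library, so that both the level in a type and the number of its cells count. RG-like cells held 36.5% of control and 40.8% of *Smo*-cKO UMIs. Over all cells, *Cdkn1a* was 13.8 CPM in control and 59.0 CPM in *Smo*-cKO, and RG-like cells carried 61.9% of that difference. Microglia-like cells, which held 1.92% and 4.37% of UMIs, carried 23.5%, IPC-like cells 3.87%, MIPC-like cells 3.22% and PyN-like cells 2.00%. RG-like cells carried 86.1% of the difference for *Phlda3*, 92.1% for *Zmat3*, 78.4% for *Ccng1* and 62.1% for *Sesn2*. The part was 87.2% for *Eda2r*. For *Sesn2*, PyN-like cells carried 20.5%. *Trp53inp1* differed from these, since PyN-like cells carried 65.3% of its difference (354 and 616 UMIs) and RG-like cells 55.6%, with a part of -11.9% in IPC-like cells. For *Trp53* the parts were 96.2% in RG-like and 87.6% in PyN-like cells, and for *Bax* 136% and 89.3%, both set against negative parts in IPC-like, MIPC-like and untyped cells. PyN-like cells held 11.7% of control and 19.6% of *Smo*-cKO UMIs, so their parts include their larger number. *Mdm2* differed by 0.167 CPM over all cells, too little to be divided.

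**Figure D4:**
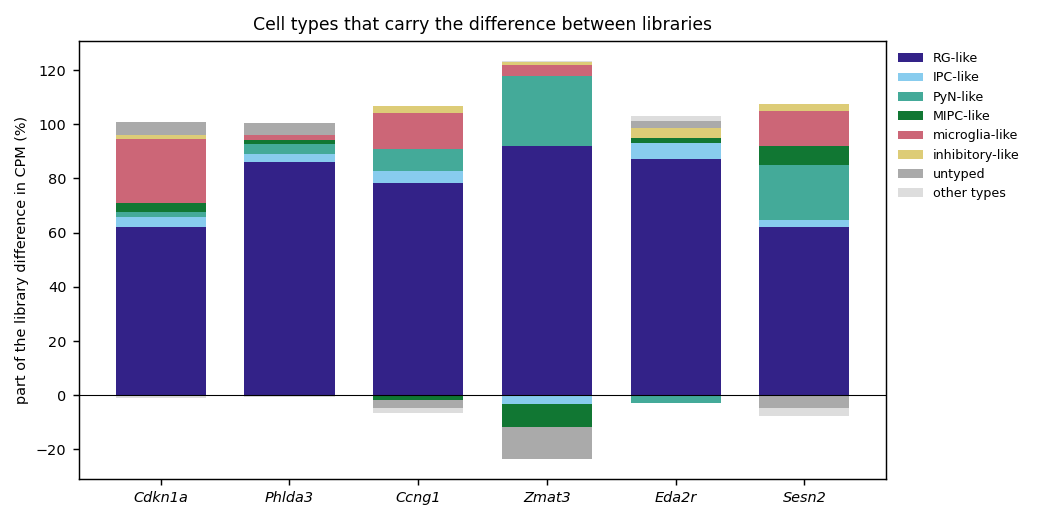
Part of the difference in CPM between the libraries that each cell type carries, in percent (y axis), for 6 of the 10 genes (x axis). Colors are cell types and parts below 0 are types with a lower contribution in *Smo*-cKO. RG-like cells form the main part of each bar, from 61.9% for *Cdkn1a* to 92.1% for *Zmat3*, and microglia-like cells add 23.5% for *Cdkn1a*.

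The microglia-like part depends on which cells are counted. Cells with a UMI of at least 2 of *P2ry12*, *Cx3cr1* and *Fcrls* and none of *S100a8* or *S100a9* numbered 68 in control and 63 in *Smo*-cKO, a choice made after the mixed markers were seen. In them *Cdkn1a* stood at 77.5 and 237 CPM, a ratio of 3.06 (2.31 to 4.11), and *Ccng1* at 16.3 and 38.9 CPM, a ratio of 2.39 (1.26 to 4.87). *Phlda3* had 1 and 15 UMIs there, a ratio of 11.4 (1.75 to 479), and *Bax* had a ratio of 1.30 (1.11 to 1.52). *Trp53* had 0.771 (0.540 to 1.10), and the intervals of *Mdm2*, *Sesn2*, *Zmat3* and *Trp53inp1* also held 1. In the other 29 control and 113 *Smo*-cKO microglia-like cells *Cdkn1a* stood at 267 and 366 CPM, a ratio of 1.37 (1.01 to 1.88). *Phlda3* had 6 and 4 UMIs in those cells, a ratio of 0.162 (0.0336 to 0.682), and *Bax* a ratio of 0.753 (0.598 to 0.954). The higher *Cdkn1a* was therefore present among cells with microglia genes, and the larger number of other myeloid cells in *Smo*-cKO moves with the library total. When cells with at least 2 markers of another type were left out instead, 39 control and 92 *Smo*-cKO microglia-like cells remained and the ratio was 1.22, so the microglia-like value varied with the choice of cells. The *Ccng1* and *Bax* ratios were then 0.668 and 0.757, on the other side of 1.

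Within RG-like cells *Eda2r*, *Phlda3*, *Sesn2* and *Ccng1* stood well higher in cells with a *Cdkn1a* UMI in both libraries, and the other genes less so. In the control library, the 103 cells with a *Cdkn1a* UMI had 112 CPM of *Phlda3* against 12.2 CPM in the 3070 cells without, a ratio of 9.20 (7.07 to 11.9). *Ccng1* stood at 57.3 against 11.7 CPM (4.89, 3.44 to 6.81), *Sesn2* at 18.7 against 2.43 CPM (7.67, 3.88 to 14.3) and *Eda2r* at 11.99 against 0.829 CPM (14.5, 5.58 to 35.3). Of 12181 genes with at least 20 UMIs, *Eda2r* ranked 9, *Phlda3* 20, *Sesn2* 25 and *Ccng1* 58 by this ratio. Genes of other stress responses stood above them, named after their values were seen. The highest were the heat shock gene *Hspa1a* (4 UMIs without, 20 with), the chemokine gene *Cxcl10* (19 and 95), *Chac1* of the integrated stress response (8 and 23) and *Hspa1b* (10 and 17), and *Atf3* ranked 8. In *Smo*-cKO, where *Eda2r* ranked 6, *Phlda3* 24, *Ccng1* 32 and *Sesn2* 40 of 12171, none of these 5 was among the first 15. Other genes outside the p53 lists stood there, such as the chemokine gene *Cxcl1* (rank 4, 2 and 18 UMIs) and *Nupr1* (rank 10, 18 and 72 UMIs). In control *Trp53inp1* had 2.04 (1.36 to 2.94), *Bax* 1.36 (1.21 to 1.52), *Trp53* 1.34 (1.07 to 1.65), *Zmat3* 1.52 (0.889 to 2.45) and *Mdm2* 1.51 (0.994 to 2.22). The median depth was 6099 UMIs in cells with and 5119 in cells without *Cdkn1a*.

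In *Smo*-cKO the 442 cells with *Cdkn1a* showed a like pattern against the 1671 cells without, with median depths of 7242.5 and 7498 UMIs. *Phlda3* stood at 180 against 24.0 CPM (7.52, 6.58 to 8.62), *Ccng1* at 83.4 against 13.4 CPM (6.23, 5.16 to 7.53), *Sesn2* at 18.8 against 3.18 CPM (5.90, 3.97 to 8.86) and *Eda2r* at 16.0 against 0.740 CPM (21.7, 10.97 to 47.5). *Zmat3* and *Mdm2*, at 2.57 (2.15 to 3.07) and 1.61 (1.30 to 1.97), had intervals above 1 here that held 1 in control. *Trp53inp1* had 3.03 (2.57 to 3.57), *Trp53* 1.37 (1.24 to 1.52) and *Bax* 1.61 (1.53 to 1.69), with intervals above 1 in both libraries. Cells with at least 2900 UMIs, thinned to 2900, were compared for the 6 genes *Ccng1*, *Phlda3*, *Sesn2*, *Zmat3*, *Eda2r* and *Trp53inp1*. A *Smo*-cKO cell with *Cdkn1a* was expected to show 1.09 of the 6 and a cell without 0.246, against 0.659 and 0.169 in control.

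**Figure D5:**
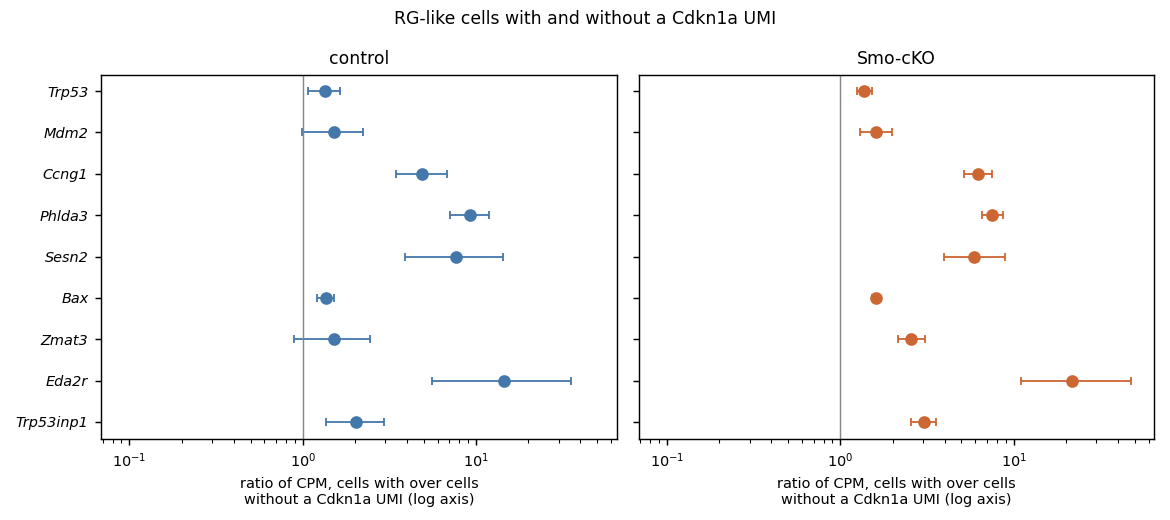
Ratio of CPM in RG-like cells with a *Cdkn1a* UMI over those without (x axis, log scale) for the other 9 genes (y axis), in control (103 and 3070 cells) and *Smo*-cKO (442 and 1671 cells). Points have 95% counting intervals and the line marks 1. *Eda2r*, *Phlda3*, *Sesn2* and *Ccng1* lie between 4.89 and 21.7 in both libraries, and *Trp53* at 1.34 and 1.37.

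In cells without a *Cdkn1a* UMI each other gene had a lower ratio than over all RG-like cells. Lower ratios are built into this choice, since the cells left out had more of these genes and were more numerous in *Smo*-cKO. *Ccng1* stood at 11.7 CPM in control and 13.4 CPM in *Smo*-cKO, a ratio of 1.14 (0.931 to 1.40). *Sesn2* had 1.31 (0.838 to 2.04), *Mdm2* 0.921 (0.794 to 1.07) and *Eda2r*, with 15 and 10 UMIs, 0.892 (0.358 to 2.12). *Trp53* had 1.16 (1.08 to 1.24), *Bax* 1.09 (1.05 to 1.14) and *Trp53inp1* 1.21 (1.04 to 1.41). *Phlda3* was still higher, at 12.2 and 24.0 CPM (1.97, 1.65 to 2.35), as was *Zmat3* at 15.8 and 23.3 CPM (1.48, 1.26 to 1.74). A cell can lack a UMI of a gene it expresses, so the group without a UMI is not a group without *Cdkn1a*. Among cells with a *Cdkn1a* UMI the ratio of *Smo*-cKO over control was 1.46 (1.06 to 2.05) for *Ccng1*, 1.61 (1.28 to 2.05) for *Phlda3*, 2.50 (1.54 to 4.30) for *Zmat3* and 1.01 (0.561 to 1.94) for *Sesn2*. For *Ccng1*, *Sesn2*, *Eda2r* and *Mdm2* the interval held 1 in cells without a *Cdkn1a* UMI, and for the other genes it did not.

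*Prm1* was found in 80.7% of *Smo*-cKO RG-like cells without and 88.5% with *Cdkn1a*. *Smo* stood at 13.7 and 14.7 CPM in control RG-like cells without and with *Cdkn1a*. The summed markers of other cell types moved with *Cdkn1a* too. Of 11 such lists, 6 were higher in RG-like cells with *Cdkn1a* than in those without in both libraries, 3 were lower in both and 2 differed between libraries. The 3 ependymal markers stood at 18.1 CPM without and 34.6 CPM with *Cdkn1a* in control and at 22.1 and 42.3 CPM in *Smo*-cKO. The 9 vascular markers stood at 30.0 and 38.6 CPM and at 39.1 and 45.0 CPM, and the 14 microglia markers at 19.4 and 26.6 CPM in control but 27.8 and 26.0 CPM in *Smo*-cKO. The 11 IPC markers were lower with *Cdkn1a*, at 755 and 625 CPM and at 845 and 614 CPM. The 16 RG markers stood at 39083 and 29832 CPM in control and at 43590 and 40494 CPM in *Smo*-cKO. Their part in the result was not tested.

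p21 acts on the cell cycle, and the genes of G2 and mitosis had a lower level where *Cdkn1a* was found. Summed over 18 genes of G2 and mitosis, RG-like cells with *Cdkn1a* had 0.706 times the CPM of cells without in control (1957 against 2774 CPM) and 0.392 times in *Smo*-cKO (804 against 2053 CPM). The 16 S phase genes had 1.42 times in control but 0.939 times in *Smo*-cKO. RG-like cells were also split into those with no UMI of the G2 and mitosis genes and at most 2 detected S phase genes (890 in control, 709 in *Smo*-cKO) and the rest (2283 and 1404). In the cells with no cycle genes *Cdkn1a* stood at 13.9 and 130 CPM, a ratio of 9.40 (7.17 to 12.5), and in the rest at 14.9 and 63.1 CPM, a ratio of 4.24 (3.64 to 4.95). At 2900 UMIs the shares of cells with *Cdkn1a* were 2.08% and 2.18% in control and 19.8% and 10.7% in *Smo*-cKO. In control the level was alike on both sides of the split, and in *Smo*-cKO it was not.

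The other genes followed the split in part. In cells with no cycle genes *Phlda3* had a ratio of 5.34 (4.14 to 6.96) against 2.77 (2.37 to 3.25) in the rest, *Ccng1* 2.79 (2.10 to 3.75) against 1.73 (1.44 to 2.10), *Zmat3* 2.44 (1.84 to 3.28) against 1.73 (1.47 to 2.06) and *Trp53inp1* 2.31 (1.81 to 2.97) against 1.40 (1.20 to 1.63). *Sesn2* had 2.02 in both. *Eda2r* had 9.08 (2.83 to 46.4), on 3 and 31 UMIs, against 2.09 (1.19 to 3.75). *Trp53*, *Mdm2* and *Bax* had 1.28, 1.15 and 1.29 against 1.21, 0.960 and 1.17. Cells with no cycle genes had fewer UMIs (medians 4353 and 6456) than the rest (5578 and 8087.5), which makes a UMI of a cycle gene less likely to be seen.

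Of 40 further known p53 targets, 35 had at least 50 UMIs in RG-like cells, and 9 of them were at least 2-fold higher in *Smo*-cKO, beside the background of 2.68%. None was 2-fold lower. The 9 were *Trp53cor1*, *Ephx1*, *Gdf15*, *Tnfrsf10b*, *Fas*, *Ak1*, *Tap1*, *Bbc3* and *Dcxr*. *Trp53cor1* (lincRNA-p21, chromosome 17, 29057430 to 29079179), which lies beside *Cdkn1a*, had 12 UMIs in control and 122 in *Smo*-cKO, a ratio of 11.2 (6.17 to 22.2). *Ephx1*, an epoxide hydrolase, stood at 4.62 and 26.3 CPM, a ratio of 5.70 (4.52 to 7.25), and *Gdf15*, a secreted stress signal, at 1.96 and 9.16 CPM, 4.66 (3.24 to 6.86). The death receptors *Tnfrsf10b* and *Fas* had 2.88 (1.71 to 5.01) and 2.77 (1.75 to 4.50), and *Bbc3*, which encodes the apoptosis inducer PUMA, had 2.41 (1.97 to 2.95). The adenylate kinase *Ak1* had 2.70 (2.21 to 3.31), the peptide transporter *Tap1* 2.62 (1.76 to 3.99) and the reductase *Dcxr* 2.20 (1.93 to 2.52). *Tap1* is also induced by interferon. The 3 targets with the most UMIs were *Ckap2*, a spindle gene, at 0.602 (0.561 to 0.646), *Gpx1* at 1.09 (1.02 to 1.16) and *Btg2* at 0.911 (0.841 to 0.987).

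In the other types none of the further targets tested was at least 2-fold higher. The count was 0 of 25 in IPC-like (background 1.58%), 0 of 22 in PyN-like (0.701%), 0 of 18 in MIPC-like (1.22%) and 0 of 12 in microglia-like cells (5.78%). These counts are near the background and say nothing particular about the targets. The median log2 ratios were -0.03, -0.05, -0.11 and 0.40 against 0.39 in RG-like cells. Fewer genes were tested there, since the types have fewer UMIs. Those 2-fold lower were *Gtse1* (0.378) and *Ckap2* (0.469), genes of dividing cells, in IPC-like cells and *Gadd45a* (0.497) in PyN-like cells, named after their values were seen. They make 2 of 25 in IPC-like cells (background 2.71%) and 1 of 22 in PyN-like cells (0.945%).

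Of 13 p53 regulators tested in RG-like cells none was 2-fold higher or lower, near the background of 2.68% and 1.61%, with a median log2 ratio of -0.07. The ribosomal proteins *Rpl11* and *Rpl5*, which bind MDM2, had ratios of 0.951 (0.940 to 0.963) and 1.04 (1.01 to 1.07), and the p53 ligase *Rchy1* had 1.19 (1.08 to 1.31). Of 14 apoptosis genes none was 2-fold higher, beside 2.68% of all genes, and 2 were 2-fold lower, beside 1.61%. With a list of 14, none higher is near the background. *Bcl2*, which protects from apoptosis, stood at 31.5 and 13.8 CPM, a ratio of 0.438 (0.376 to 0.511), and *Bok*, a relative of *Bax*, at 12.2 and 4.03 CPM, a ratio of 0.331 (0.249 to 0.435). *Cycs*, *Mcl1* and *Diablo*, the 3 with the most UMIs, had 1.15 (1.11 to 1.20), 0.851 (0.800 to 0.906) and 1.08 (1.01 to 1.16). The median log2 ratio of the 14 was 0.03.

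Other gene lists moved with the libraries in the same cells. In RG-like cells all 12 interferon-induced genes tested had more CPM in *Smo*-cKO, beside 5687 of all 11915 genes tested. At least 2-fold higher were 8 of the 12, beside 2.68% of all genes. The summed level of the 12 was 725 CPM in control and 1407 CPM in *Smo*-cKO. The same list was at least 2-fold higher for 5 of 8 genes in IPC-like (background 1.58%), 2 of 5 in PyN-like (0.701%), 0 of 4 in MIPC-like (1.22%) and 10 of 12 in microglia-like cells (5.78%). In RG-like cells with *Cdkn1a* it stood at 1155 against 707 CPM in those without in control, and at 1622 against 1349 CPM in *Smo*-cKO. All 16 S phase genes and all 18 G2 and mitosis genes were lower in *Smo*-cKO RG-like cells, beside 6228 of all 11915 genes tested. The median log2 ratio was -0.30 for the S phase genes and -0.65 for the G2 and mitosis genes. Of 13 immediate early genes in RG-like cells, *Klf2* was 2.12 times as high and *Egr1* 0.485 times, and the median log2 ratio was -0.28. In microglia-like cells, where the *Cdkn1a* ratio was 2.56, the median was 0.88 and 3 of the 13 were at least 2-fold higher (background 5.78%), *Ier3* at 3.02 (2.57 to 3.57), *Dusp1* at 2.60 (2.16 to 3.15) and *Nr4a1* at 2.11 (1.49 to 3.07). *Egr1*, 1 of the 13, was 2-fold lower there, at 0.497 (0.424 to 0.583), beside a background of 3.71%. The summed level of the 13 in microglia-like cells was 2505 CPM in control and 4138 CPM in *Smo*-cKO. None of those tested was past 2-fold in IPC-like, PyN-like and MIPC-like cells. The part of these lists in the p53 target values was not tested.

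Among 4579 genes with at least 50 UMIs in each of the 5 types, the 5 whose log2 ratios over the 5 types lay nearest to those of *Cdkn1a* were the hemoglobin gene *Hbb-bs*, the antigen presentation genes *B2m*, *H2-D1* and *H2-K1*, and *Lgals1*. Their Euclidean distances over 5 types were 1.75, 1.77, 1.88, 1.90 and 2.15. *Hbb-bs* was between 2.35 and 3.43 times as high in *Smo*-cKO in the 5 types, and *B2m* between 1.70 and 4.39 times. None of the 9 other genes described here was among them, and 6 of the 9 had fewer than 50 UMIs in at least 1 type.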

How the data were processed

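The mouse data are 10× Genomics droplet libraries. The deposited values are UMI counts of genes in cells, made by the authors with Cell Ranger and not normalized. The submitters' processing notes name Cell Ranger, Seurat 3, StringTie and the mm10 build; the study's methods name a later Seurat release, and the Cell Ranger version and the annotation are not given in the sources used here. The ferret table was not used here.

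Cells with 750 to 5000 genes and less than 10% mitochondrial UMIs were kept. A cell was typed by the number of its markers with a UMI: at least 9 for RG-like, 5 for IPC-like, PyN-like and microglia-like, and 3 for MIPC-like and the remaining types. Where RG, IPC and PyN lists passed together, the list with the largest detected fraction was taken. These numbers were set after marker counts had been seen. Doublets were neither called nor removed. The genes and lists were chosen with earlier results of these data known.

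UMIs were summed per type and library. CPM were given exact Poisson intervals, shares exact Clopper-Pearson intervals, ratios exact conditional binomial intervals, and differences of log2 ratios normal-approximation intervals (95%). For a share of 0 the limit is 3 counts. Genes whose UMIs in a type came to at least 50 over both libraries were counted against a fold of 2. Named were the 10 genes in every type, the further p53 targets, regulators and apoptosis genes past that fold in RG-like cells, the 3 of each of these lists with the most UMIs, and the 5 genes nearest to *Cdkn1a* in log2 ratios. The ratio and its interval were run on simulated sums drawn from a Poisson distribution. The interval assumes that distribution, so the run checks the calculation and cannot show the spread between cells. In control RG-like cells 1 cell held 29 of the 276 *Cdkn1a* UMIs, and the intervals do not cover such spread. Python 3.11.15, numpy 2.4.6, scipy 1.17.1 and pandas 2.3.3 were used. Alternatives changed scaling, cell limits, marker number, second-type cells, weighting of cells, depth, UMI minimum, fold and cycling cells. Coordinates come from the GENCODE annotation of GRCm38.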

Additional observations from a re-analysis of the deposited data

Results flagged for a closer look

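These values stand out because the ratio of *Smo*-cKO over control differed between cell types of the same 2 libraries by more than counting error. Of 38 differences computed between RG-like cells and the 4 other types, 12 had an interval that left out 0, and with 1 library per genotype none was tested over embryos. All 12 were larger in RG-like cells. The genes had been selected on higher shares of *Cdkn1a* and *Trp53* in RG-like cells of *Smo*-cKO, so this shared direction describes them and supports nothing. On the log2 scale the excess over microglia-like cells was 0.84 for *Trp53*, 1.12 for *Cdkn1a*, 1.27 for *Phlda3* and 1.1 for *Zmat3*. The excess over PyN-like cells was 0.93 for *Ccng1*, 0.31 for *Bax*, 0.72 for *Zmat3* and 0.39 for *Trp53inp1*. The excess over IPC-like cells was 0.19 for *Bax*, 0.65 for *Zmat3* and 0.46 for *Trp53inp1*, and that over MIPC-like cells was 0.78 for *Zmat3*. The microglia-like class holds different myeloid cells in the 2 libraries, and the *Phlda3* value there rests on 7 and 19 UMIs. In the 68 control and 63 *Smo*-cKO cells with microglia genes and no *S100a8* or *S100a9*, *Phlda3* had 1 and 15 UMIs, a ratio of 11.4 (1.75 to 479).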

How the results depend on the processing

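No paired analysis was possible because there is 1 library per genotype, and for the same reason no replicate could be left out. The count of 5 of the 10 genes at least 2-fold higher in RG-like cells was 4 to 7 under the 10 alternatives run, and their median log2 ratio kept its sign. With at least 10 UMIs in place of 50, the count was 2 in PyN-like cells (background 2.89%) and 4 in MIPC-like cells (3.80%). Without cells holding markers of a second type the count was 1 in MIPC-like cells, of 3 genes tested in 174 and 42 cells. In microglia-like cells it was then 0, of 3 genes tested in 39 and 92 cells, with a median log2 ratio of -0.42. With a fold of 1.5 the microglia-like count was 2 (background 13.2%). With the choice of microglia genes and no *S100a8* or *S100a9*, added after the data were seen, it was also 2. Leaving out shared barcodes, also added later, changed no count. Of 361 recomputed single ratios 333 stayed within their counting interval, 28 moved and none changed side of 1 where its interval left out 1. Low counts limit *Eda2r* and *Sesn2* outside RG-like cells.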
